A study of Mus musculus with 12 samples.

Results

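The PYHIN genes encode the interferon-inducible p200 proteins, most of which pair a pyrin domain, which binds other pyrin domains, with a HIN domain, which binds DNA. The 9 members described here, Ifi204, Ifi203, Ifi205, Ifi207, Ifi209, Ifi211, Ifi213, Mndal and Aim2, were chosen by gene symbol. Earlier results of these data were known when that choice was made. Of the 25919 rows of the table, 8 carried the symbol of a member, and the row named Mnda was read as Ifi211, since RefSeq lists Mnda as an older symbol of that gene alone. The libraries compared were CD40 day 2 (4 libraries, called a to d) and Kupffer cells day 0 (2 libraries, a and b). Both came from livers of C57BL/6 mice labelled 7 weeks old, and no treatment, allele or other strain is named for either group. What the days are counted from, how cells were sorted and whether each library is 1 animal are not stated in the labels. The p-values therefore rest on library-to-library spread, and that may be technical. Label and day differed together and cannot be told apart. The remaining 6 libraries (Kupffer cells of day 7 and CD40-negative cells of day 2) gave no gene values here: down the table, ordered by Kupffer day 0 a, library a of each of these groups also falls, with 1 step up, so their values seem to have been sorted apart from the gene names.

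In mouse macrophages and monocytes the family is part of the interferon response, and several members sense DNA. Aim2 binds DNA in the cytosol and gathers the adaptor ASC and caspase-1 into an inflammasome, which matures interleukin-1β and interleukin-18. Ifi204, the mouse gene usually set beside human IFI16, encodes a DNA sensor that acts through the adaptor STING. Interferon reaches such genes through the interferon-stimulated response element, a repeat of GAAA.

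All 9 members lie on chromosome 1 (GRCm38) within 680.9 kb, from 173350879 to 174031810, and the genes between them include further PYHIN genes. To show how alike the promoter sequences are, 30 bases around the response element in RefSeq's promoter windows (GRCm38.p6) are given here. They are written 5′ to 3′ in the direction of transcription, with the element in capitals. The windows run from 250 bases before to 50 after the annotated start, and a match was GAAA, NN and GAAA in a row or, on the other strand, TTTC, NN and TTTC.
Ifi205, chr1:174031870-174031899, minus strand: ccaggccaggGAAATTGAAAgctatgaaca
Ifi211, chr1:173913064-173913093, minus strand: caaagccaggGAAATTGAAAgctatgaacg
Ifi207, chr1:173741831-173741860, minus strand: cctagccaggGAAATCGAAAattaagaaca
Ifi213, chr1:173599326-173599355, minus strand: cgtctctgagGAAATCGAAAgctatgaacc
Ifi208, chr1:173673597-173673626, plus strand: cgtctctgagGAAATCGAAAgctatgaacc
Ifi203, chr1:173942508-173942537, minus strand: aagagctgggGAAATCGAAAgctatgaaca
Mndal, chr1:173880204-173880233, minus strand: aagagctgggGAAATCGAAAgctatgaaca
Ifi214, chr1:173536017-173536046, minus strand: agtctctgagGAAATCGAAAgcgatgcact
Ifi209, chr1:173630770-173630799, plus strand: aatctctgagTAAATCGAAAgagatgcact
Ifi208 and Ifi214 are PYHIN genes of the same stretch that are not among the 9. The stretch of Ifi209 is not a match: it is the one that aligned with the Ifi214 element, from which it differs by G1T, counted from 1 at the 5′ end of the 10 letters. RefSeq's table held promoters of 8 members, and 6 of these members held a match in any of their windows. Of all promoter windows in that table, counted by window and not by gene, 3.44% held a match (1131 of 32851). The windows of Aim2 and Ifi209 held none. That of Aim2, 173420354 to 173420653, lies inside the gene's annotated span, which begins at 173350879. The sequence at the beginning of that span was not read. GGAA, NN and GAAA in a row on either strand, an element of PU.1 with an IRF, stood in 0 of the 8 and in 2.72% of all windows. A match is a description of letters, and no match says only that these letters are not in the window. The element began 134 bases before the window's start in Ifi205, 73 in Ifi213, 41 in Ifi207, 37 in Ifi211, 36 in Mndal and 35 in Ifi203. In Ifi213, Ifi211, Mndal and Ifi203 it nevertheless lies inside RefSeq's span of the gene. On the minus strand these spans begin at 173599348, 173913087, 173880382 and 173942866. For these genes the distance holds for the window's start only. Ifi205 held a further match 23 bases past its start, and a second annotated start of Mndal had one on the other strand. For Ifi203 the distance is from the second of its annotated starts.

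Of the 9 members 5 rose in CD40 day 2 and 1 fell relative to Kupffer day 0. Ifi205, Ifi209, Ifi211, Ifi213 and Aim2 were higher, by 3.91-fold for Aim2 to 21.1-fold for Ifi205, and Ifi203 was lower. Ifi204, Ifi207 and Mndal did not pass the test. The test was edgeR's quasi-likelihood test on all genes with Benjamini-Hochberg adjustment, and a gene passed at an adjusted p under 0.05. Of the 9852 genes tested 53.4% passed, 23.2% higher and 30.2% lower, and 6 of 9 members is a share not far from that of all genes. The members' median log2 fold change was 1.97, against -0.10 for all genes tested. The groups' libraries did not overlap in 7 members, 5 higher and 2 lower in CD40 day 2. Over all genes tested the libraries did not overlap in 66.6%, with 29.7% higher and 36.9% lower. Levels are given as CPM, on library totals scaled by TMM.

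**Figure D1:**
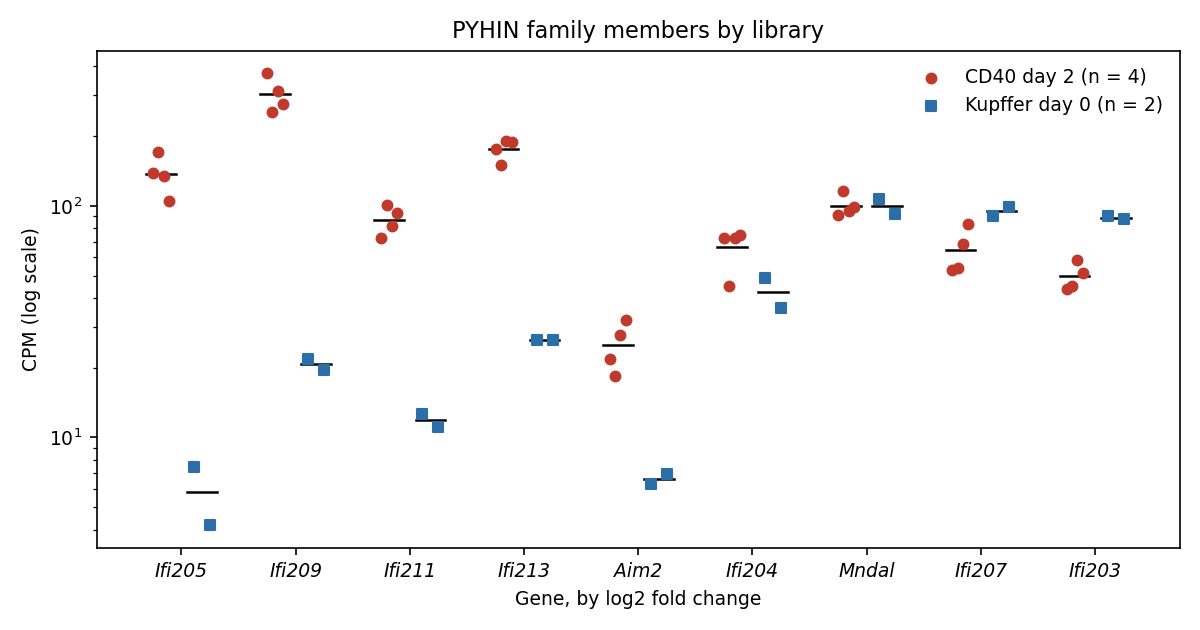
CPM of the 9 members on a log axis, ordered by log2 fold change, with CD40 day 2 libraries as red circles left of Kupffer day 0 libraries as blue squares, and a black bar at each group's mean. From Ifi205 to Aim2 the 4 CD40 day 2 libraries stand above both Kupffer day 0 libraries, and Ifi207 and Ifi203 stand below them.

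Among the members that rose, Ifi205 had 139, 171, 134 and 105 CPM in CD40 day 2 a to d, against 7.46 and 4.18 CPM in Kupffer day 0 a and b. In mouse macrophages its protein has been tied to the level of ASC, the inflammasome adaptor. Its own row had the highest estimated fold change of the 9 (log2 fold change 4.40 ± 0.34 SE, adjusted p = 5.3e-06), and every CD40 library was above both Kupffer libraries. The Kupffer level rests on 13 and 3 counts. With each group's summed counts divided by its summed library totals, without TMM scaling, the ratio was 18. By counting error alone this ratio has a 95% exact interval of 11 to 31.6. Ifi211 had 72.8, 100.4, 81.5 and 93.5 CPM in CD40 day 2, against 12.6 and 11.1 CPM in Kupffer day 0 (2.83 ± 0.26, adjusted p = 1.47e-05). Both genes were highest in CD40 day 2 b, though Ifi205 varied more among the 4 libraries (coefficient of variation 19.8%) than Ifi211 (14.1%).

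Ifi205 and Ifi211 are close copies, and this bears on their separate values. The cDNA read was 75 cycles long per the labels' protocol, and libraries were made from the 3′ end. Of the distinct 75-base stretches in the last 500 bases of GENCODE M21 transcripts of Ifi211, 64.3% also stood in a transcript of Ifi205, and 33.1% of those of Ifi205 stood in Ifi211. The sources used here do not name how the counting treated such reads, so the counts of these 2 genes are uncertain one by one. Their sum was 212, 272, 216 and 198 CPM in CD40 day 2, against 20.1 and 15.3 CPM in Kupffer day 0, and the ratio of the group means was 12.7, below that of Ifi209. The groups stood apart in this sum, which does not depend on how reads were divided between these 2 rows. It still depends on whether shared reads were dropped or counted more than once, and on reads shared with Mndal. Of the stretches of Ifi211 11.7%, and of those of Ifi205 5.87%, stood in Mndal. Of those of Mndal 7.7% stood in Ifi211 and 7.31% in Ifi205.

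Ifi209 had 373, 253, 315 and 275 CPM in CD40 day 2, against 21.8 and 19.5 CPM in Kupffer day 0. The lowest CD40 library was above the higher Kupffer library by more than the spread within either group (log2 fold change 3.86 ± 0.25 SE, or 14.5-fold; edgeR adjusted p = 2.16e-06). Of its 3′ stretches 41.1% also stood in Ifi214, a PYHIN gene outside the 9 that was itself near the detection limit. Ifi214 had 6.37, 8.49, 8.19 and 4.77 CPM in CD40 day 2, against 1.15 and 1.39 CPM in Kupffer day 0, where these levels are 2 counts and 1 count (2.40 ± 0.61, adjusted p = 0.00826). The sum of both genes was 311 ± 52.5 CPM in CD40 day 2 and 21.9 ± 1.47 CPM in Kupffer day 0 (SD, n = 4 and n = 2), so Ifi214 moved the total little.

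Ifi213 had 177, 150, 191 and 189 CPM in CD40 day 2, against 26.4 and 26.5 CPM in Kupffer day 0. It varied least of the 9 among the CD40 libraries (coefficient of variation 10.8%), and no library of one group came near the other (log2 fold change 2.74 ± 0.21 SE, or 6.70-fold; edgeR adjusted p = 5.41e-06). Ifi213 and Ifi208 were set side by side because their promoter sequences are so alike. The 30-base stretches printed above have 0 differences, and 98.9% of 285 aligned bases of the promoter windows are the same. Ifi208 had 22.8, 12.7, 21.8 and 19.1 CPM in CD40 day 2, against 24.7 and 15.3 CPM in Kupffer day 0. Its groups overlapped and it did not pass the test (-0.10 ± 0.32, adjusted p = 0.82). The difference between the 2 genes' fold changes was not tested. At the 3′ end 10.8% of the stretches of Ifi213 stood in Ifi208 and 12.2% the other way.

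Aim2, the inflammasome sensor, had the lowest CPM in CD40 day 2 of the members that rose, with 21.8, 18.4, 27.8 and 32.2 CPM in CD40 day 2, against 6.32 and 6.96 CPM in Kupffer day 0. All 4 CD40 libraries were above both Kupffer libraries, which held 11 and 5 counts (log2 fold change 1.97 ± 0.37 SE, edgeR adjusted p = 0.00144). Of its 3′ stretches 0 were shared with any other gene's transcripts. In GENCODE M21 the span of Aim2 overlaps that of Cadm3 on the other strand, with no exon in common.

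Ifi203 was the member that fell, with 43.7, 45.3, 58.3 and 51.2 CPM in CD40 day 2, against 90.1 and 87.7 CPM in Kupffer day 0. The groups did not overlap, and the level in Kupffer day 0 was 1.77-fold that in CD40 day 2 (log2 fold change -0.83 ± 0.19 SE, edgeR adjusted p = 0.00442). Without Kupffer day 0 a the fold change was -0.81 and the call was lost (adjusted p = 0.0516, range over the alternatives 0.0023 to 0.0516). The pseudogene Ifi203-ps, which lies between Ifi204 and Mndal and is not among the 9, had 7.28, 5.66, 6.37 and 4.77 CPM in CD40 day 2, against 41.9 and 47.4 CPM in Kupffer day 0 (-2.87 ± 0.28, adjusted p = 2.32e-05). Of the 3′ stretches of Ifi203, pooled over 9 annotated transcripts, 2.29% stood in the pseudogene (56 of 2446). Of those of the pseudogene, from 1 transcript, 11.3% stood in Ifi203 (48 of 426). The 2 shares rest on unlike numbers of transcripts and cannot be set against each other.

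Ifi207 had 52.8, 53.8, 68.7 and 83.4 CPM in CD40 day 2, against 90.7 and 98.9 CPM in Kupffer day 0. Its groups did not overlap, yet library d came close to Kupffer day 0 a, and it did not pass the test (log2 fold change -0.52 ± 0.22 SE, 95% interval -1.02 to -0.03, edgeR adjusted p = 0.0694). It passed without CD40 day 2 d (-0.68, adjusted p = 0.0222) and with a minimum of 10 counts in 4 libraries (-0.65, adjusted p = 0.0327), and its adjusted p over the alternatives ran from 0.0222 to 0.253. The interval is not adjusted for the number of genes, whereas the adjusted p is.

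Mndal, whose protein is a nuclear PYHIN protein named for its likeness to human MNDA, had 91.0, 116, 95.1 and 98.9 CPM in CD40 day 2, against 107 and 91.9 CPM in Kupffer day 0. The groups overlapped throughout (log2 fold change -0.01 ± 0.18 SE, 95% interval -0.41 to 0.39, edgeR adjusted p = 0.976). That interval leaves out a rise of the size of any of the 5 members that rose. Mndal and Ifi203 have 0 differences in the 30 bases printed above, and 97.6% of 289 aligned bases of the promoter windows are the same. In GENCODE M21 the annotated span of Mndal runs over Ifi211 and Ifi203 on the same strand, and 4.27% of its exon bases also belong to Ifi203 or to a pseudogene, whereas RefSeq's Mndal reaches only to 173880382, short of both. Reads of the 3 genes could therefore have been assigned differently under another annotation.

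Ifi204, the DNA sensor, had 72.8, 45.3, 72.8 and 74.5 CPM in CD40 day 2, against 48.8 and 36.2 CPM in Kupffer day 0. Libraries a, c and d were above both Kupffer libraries, and library b fell between them. The gene did not pass the test (log2 fold change 0.63 ± 0.25 SE, 95% interval 0.07 to 1.19, edgeR adjusted p = 0.0575). It passed without CD40 day 2 b (0.81, adjusted p = 0.00516), with DESeq2's size factors (0.67, adjusted p = 0.0444) and with upper quartile scaling (0.71, adjusted p = 0.0365), and over all alternatives its adjusted p ran from 0.00516 to 0.292. Of the 3′ stretches of Ifi204 and of Ifi207, 0 stood in another gene's transcripts, whereas 3.33% of those of Mndal stood in a transcript of Ifi204.

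**Figure D2:**
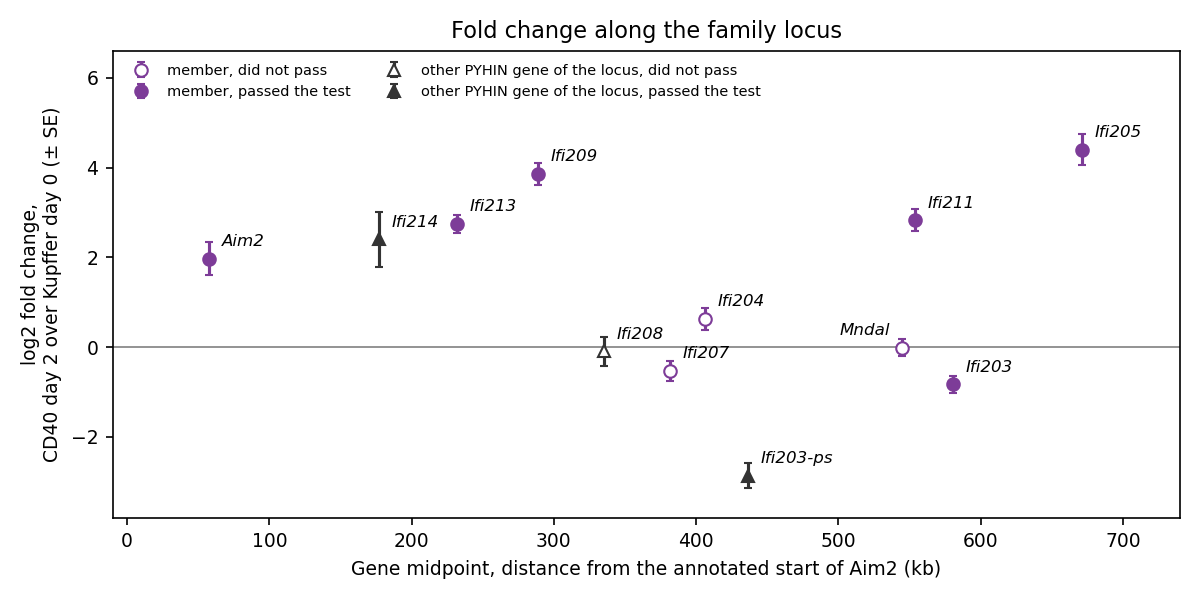
Log2 fold change of CD40 day 2 over Kupffer day 0 with its standard error against the distance of the gene's midpoint from the annotated start of Aim2, for the 9 members (circles) and 3 other PYHIN genes of the locus (triangles), filled where the gene passed the test. Genes that rose stand at both ends of the locus, and those that fell or did not pass lie between 335.2 and 580.7 kb, with Ifi211 among them.

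Along the chromosome the members that rose were not all neighbours. From the Aim2 end, Aim2, Ifi213 and Ifi209 rose. Ifi214, between the first pair, also passed, on 2 counts and 1 count in Kupffer day 0. It had too few counts to be tested with a minimum of 10 counts in 4 libraries or without CD40 day 2 b, c or d or Kupffer day 0 a, and it passed in the other 7 alternatives (adjusted p 0.00704 to 0.0466). There followed Ifi208, Ifi207, Ifi204, Ifi203-ps, Mndal and Ifi203, none of which rose, interrupted by Ifi211, which did, though 64.3% of its 3′ stretches are shared with Ifi205. Ifi205 closed the locus. Ifi209 and its neighbour Ifi208, whose midpoints lie at 288.5 and 335.2 kb and which share no 3′ stretch, had log2 fold changes of 3.86 and -0.10.

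The 9 members together took 0.0970%, 0.0929%, 0.101% and 0.0948% of all counts in CD40 day 2 a to d, against 0.0445% and 0.0399% in Kupffer day 0 a and b. This is 2.28 times as much in CD40 day 2, and the groups did not overlap. The make-up of the family's counts is given next, as shares of counts from 3′ ends and not levels per transcript length. Ifi209 took 30.0 ± 4.15% of the family counts in CD40 day 2 and 5.20 ± 0.148% in Kupffer day 0 (SD, n = 4 and n = 2). Ifi213 took 17.5 ± 1.42% in CD40 day 2 and 6.66 ± 0.349% in Kupffer day 0, and Ifi205 took 13.7 ± 3.13% in CD40 day 2 and 1.45 ± 0.511% in Kupffer day 0. Ifi211 took 8.66 ± 1.58% in CD40 day 2 and 2.99 ± 0.113% in Kupffer day 0.

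Of the members with a lower mean share in CD40 day 2, Mndal took 9.96 ± 1.54% of the family counts in CD40 day 2 and 25.0 ± 1.47% in Kupffer day 0, although its own level did not pass the test. Ifi207 took 6.40 ± 1.43% in CD40 day 2 and 23.9 ± 2.67% in Kupffer day 0, and Ifi203 took 4.91 ± 0.589% in CD40 day 2 and 22.4 ± 0.716% in Kupffer day 0. Ifi204 took 6.53 ± 1.21% in CD40 day 2 and 10.7 ± 1.70% in Kupffer day 0, although its mean level was not lower in CD40 day 2. The difference in the share of Ifi204 was -4.12 points, and -1.86 points with Ifi209, the most abundant member, left out of the family total. Aim2 took 2.47 ± 0.582% in CD40 day 2 and 1.68 ± 0.201% in Kupffer day 0. A two-sided exact permutation test over the 15 splits of 6 libraries cannot give a p under 0.0667, so these shares are a description of the libraries and not a test.

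**Figure D3:**
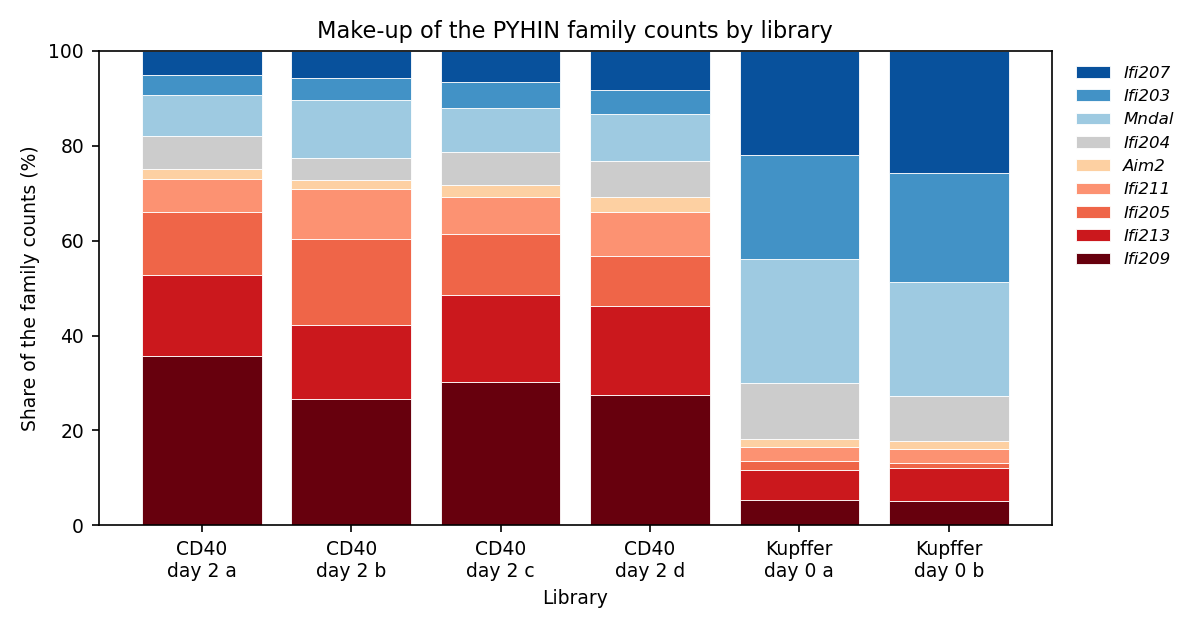
Share of the summed counts of the 9 members taken by each member (%), 1 stacked bar per library, with the 4 CD40 day 2 libraries left of the 2 Kupffer day 0 libraries. Ifi209, Ifi213, Ifi205 and Ifi211 fill most of each CD40 bar, and Ifi207, Ifi203 and Mndal most of each Kupffer bar.

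**Figure D4:**
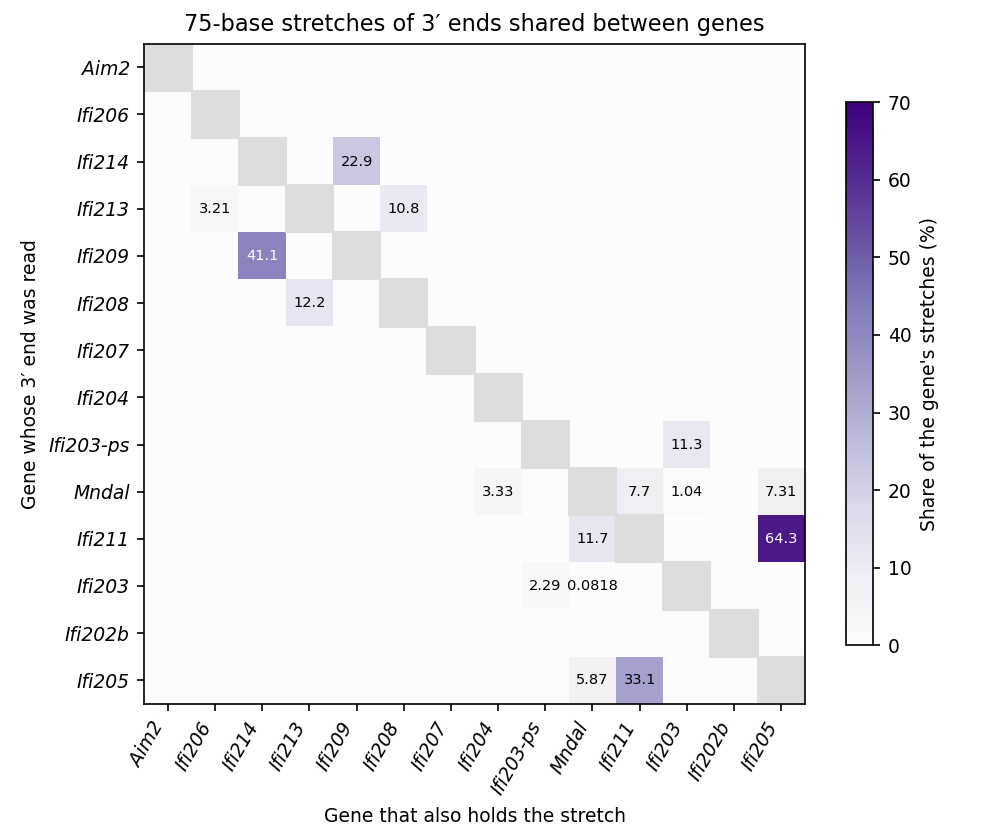
Share (%) of the distinct 75-base stretches in the last 500 bases of each gene's GENCODE M21 transcripts (rows) that also stand in transcripts of another PYHIN gene (columns), in the order of the genes along chromosome 1. Ifi211 with Ifi205 (64.3%) and Ifi209 with Ifi214 (41.1%) stand out, and the rows of Aim2, Ifi207 and Ifi204 hold no shared stretch. Stretches are pooled over a gene's transcripts, so a row's shares also depend on how many are annotated.

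The cells behind the groups differ in ways that may touch every member. Kupffer cells are the resident macrophages of the liver. Of their 8 markers Clec4f, Timd4, Vsig4, Cd5l, Folr2 and Fcna were lower in CD40 day 2, and Marco and Adgre1 did not pass the test. Together these markers took 0.0106% to 0.0220% of counts in CD40 day 2, against 0.355% and 0.400% in Kupffer day 0. All 8 classical monocyte markers were higher in CD40 day 2, at 1.62% to 2.21% of counts, against 0.149% and 0.173% in Kupffer day 0. The Kupffer day 0 libraries held more of the 8 endothelial markers, at 1.57% and 1.76% of counts, than of Kupffer markers, and CD40 day 2 held 0.0363% to 0.0677%. Stellate cell markers (0.00138% to 0.00282% in CD40 day 2, 0.0946% and 0.116% in Kupffer day 0) and hepatocyte markers (0.00620% to 0.0133% in CD40 day 2, 0.0447% and 0.0931% in Kupffer day 0) also took a smaller share of counts in CD40 day 2. All 6 stellate markers passed as lower, as did 4 of the 5 hepatocyte markers tested, Fgb being the exception (log2 fold change -0.35, edgeR adjusted p = 0.698). No marker of these lists was at 0 in either group. The part of these cells in the levels of Ifi203, Ifi207 and Mndal in Kupffer day 0, or in those of the members that rose, was not tested. In bulk RNA fewer cells of a type and less RNA per cell cannot be told apart.

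Of the 4 CD40 day 2 libraries, b had the most counts of conventional dendritic cell markers (0.0203%), and the other 3 had 0.00248% to 0.00617%. Kupffer day 0 had 0.0110% and 0.0138%, with Itgae at 0. Library b is the one in which Ifi205, Ifi211 and Mndal were highest and Ifi204, Ifi209, Ifi213 and Aim2 lowest of the 4. Plasmacytoid dendritic cell markers took 0.0488% to 0.0928% in CD40 day 2 and 0.0775% and 0.0829% in Kupffer day 0, most of it Bst2, itself an interferon-stimulated gene. Neutrophil markers took 0.0733% to 0.161% in CD40 day 2 and 0.0771% and 0.300% in Kupffer day 0. T and NK cell markers took 0.00889% to 0.0115% in CD40 day 2 and 0.0107% and 0.0123% in Kupffer day 0. B cell markers took 0.00127% to 0.00234% in CD40 day 2 and 0.00136% and 0.00218% in Kupffer day 0. B cell markers, of which Cd79a was at 0 in CD40 day 2 and Ms4a1 in Kupffer day 0, were near the floor in both groups. The part of these cells in the family's values was not tested.

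Around Aim2, the list of the inflammasome and its outputs had 9 of 12 tested genes higher and 1 lower in CD40 day 2, with a median log2 fold change of 1.57. Of all genes tested 23.2% passed as higher and 30.2% as lower, which also stands beside the counts of the lists that follow. Pycard, which encodes the adaptor ASC, was at 801 ± 92.8 CPM in CD40 day 2 and 147 ± 0.455 CPM in Kupffer day 0 (SD, n = 4 and n = 2; log2 fold change 2.44, edgeR adjusted p = 5.27e-06). Gsdmd, the pore former of pyroptosis, was at 377 ± 47.9 CPM in CD40 day 2 and 97.8 ± 17.3 CPM in Kupffer day 0, and Pstpip1, which binds pyrin, at 173 ± 37.6 CPM in CD40 day 2 and 20.8 ± 0.156 CPM in Kupffer day 0. Zbp1, a sensor of unusual nucleic acids, had the lowest adjusted p of the list, with 1121 ± 91.7 CPM in CD40 day 2 and 75.7 ± 2.61 CPM in Kupffer day 0. Il1a, an interleukin-1 gene whose product needs no caspase-1, was the gene that fell, with 27.4 ± 10.1 CPM in CD40 day 2 and 148 ± 38.4 CPM in Kupffer day 0. Without Kupffer day 0 a 5 genes of this list were higher and 1 lower.

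Ifi204 belongs to the sensing of DNA in the cytosol, and of that list 8 of 16 tested genes were higher and 1 lower in CD40 day 2 (median 0.71). The number that passed, 9 of 16, is near the 53.4% of all genes. Beside Zbp1, which both lists hold, the lowest adjusted p belonged to Samhd1, Irf7 and Ikbke. Samhd1, an enzyme that limits deoxynucleotides, was at 865 ± 114 CPM in CD40 day 2 and 141 ± 0.409 CPM in Kupffer day 0. Irf7 was at 1915 ± 368 CPM in CD40 day 2 and 280 ± 15.8 CPM in Kupffer day 0. Ikbke, a kinase related to TBK1, was at 105 ± 26.7 CPM in CD40 day 2 and 8.20 ± 0.225 CPM in Kupffer day 0. Tmem173, which encodes STING, was at 268 ± 34.2 CPM in CD40 day 2 and 83.4 ± 31.8 CPM in Kupffer day 0 (log2 fold change 1.72, edgeR adjusted p = 0.000328); it is named as the partner of Ifi204 and was chosen after its values were seen. Irf3, the factor STING acts on, fell, with 71.2 ± 9.11 CPM in CD40 day 2 and 131 ± 26.2 CPM in Kupffer day 0 (edgeR adjusted p = 0.00308). Without Kupffer day 0 a its call was lost (log2 fold change -0.68, adjusted p = 0.076, range over the alternatives 0.000643 to 0.076), and 6 genes of the list were higher and 0 lower. Mb21d1, the gene of the DNA sensor cGAS, had a log2 fold change of 0.85 ± 0.50 SE and did not pass the test (edgeR adjusted p = 0.175); it too was chosen after its values were seen.

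Of the signalling genes between interferon receptors and their targets, 8 of 17 were higher and 3 lower in CD40 day 2 (median 0.45). The number that passed, 11 of 17, is not far from the 53.4% of all genes. Usp18, a brake on the type I receptor, was at 402 ± 121 CPM in CD40 day 2 and 50.7 ± 12.7 CPM in Kupffer day 0, and Ptpn6, the phosphatase SHP-1, at 1010 ± 70.1 CPM in CD40 day 2 and 113 ± 1.18 CPM in Kupffer day 0. Jak1, a kinase of both interferon receptors, fell, with 229 ± 33.2 CPM in CD40 day 2 and 1040 ± 69.8 CPM in Kupffer day 0, as did Ifnar2 and Socs3, with log2 fold changes of -0.59 and -0.55. The calls of these last genes depended on the method: Socs3 (edgeR adjusted p = 0.0467) lost its call in 7 of 12 alternatives, DESeq2 and other scalings among them, and Ifnar2 (edgeR adjusted p = 0.0227) in 3, DESeq2 among them. Over the alternatives the adjusted p of Socs3 ran from 0.0229 to 0.449 and that of Ifnar2 from 0.0094 to 0.19. Without Kupffer day 0 b 6 genes of this list were higher and 1 lower.

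Of 23 other interferon-stimulated genes 19 passed as higher and 0 as lower, with a median log2 fold change of 1.56, beside 1.97 for the 9 members. Those with the lowest adjusted p were Phf11b (748 ± 162 CPM in CD40 day 2 and 64.8 ± 8.98 CPM in Kupffer day 0), Isg15 (1065 ± 144 CPM in CD40 day 2 and 183 ± 6.70 CPM in Kupffer day 0), Mx1 (95.5 ± 12.2 CPM in CD40 day 2 and 6.47 ± 2.66 CPM in Kupffer day 0) and Oasl2 (302 ± 19.7 CPM in CD40 day 2 and 68.3 ± 9.74 CPM in Kupffer day 0). This list ran from Mx1 with a log2 fold change of 4.02 to Mx2 with -0.84, which did not pass. Of 8 interferon genes listed, 3 had a row in the table, and the others could not be read. Transcripts of these 3 were rare. Ifnb1 had 3, 0, 31 and 0 counts in CD40 day 2 a to d and 0 in Kupffer day 0. Ifng had 2, 0, 6 and 1 counts in CD40 day 2 and 2 and 0 in Kupffer day 0. Ifna2 had 0 in all 6 libraries. None of these 3 had enough counts to be tested.

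**Figure D5:**
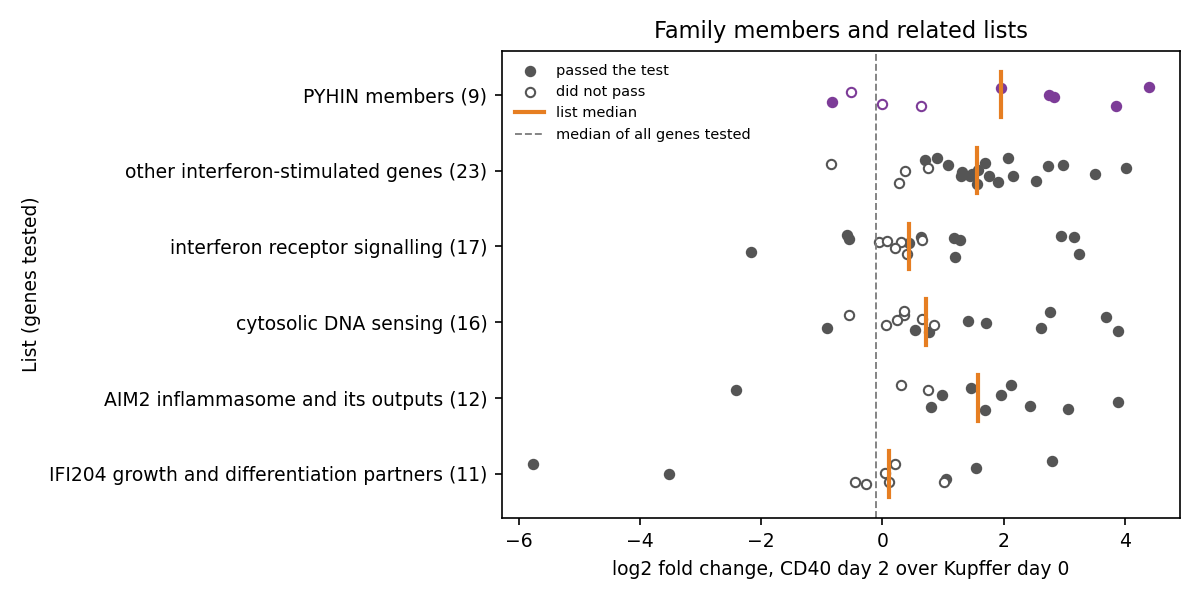
Log2 fold change of CD40 day 2 over Kupffer day 0 for each tested gene of the family and of 5 related lists, filled where the gene passed the test, with the list median in orange and the median of all genes tested as a dashed line. The family runs from -0.83 to 4.40, with its median at 1.97, beside 1.56 for other interferon-stimulated genes.

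The genes whose pattern over the 6 libraries was most like the members' mean were sought among 5663 tested genes with a mean of at least 20 CPM. The measure was the root mean square difference of log2(CPM + 1), centred on each gene's mean. Eif4e2, which encodes a cap-binding protein, was closest with a difference of 0.0472, and Taf10, which encodes a transcription factor subunit, was among the next with 0.0735. Closest to Ifi204 alone were Ifrd1 (0.0776), Rap1a (0.0990) and Gskip (0.100). Like Ifi204 they were lowest of the 4 CD40 libraries in b, which a choice by likeness over these same libraries favours. The members' mean joins genes that rose and genes that did not, so it describes no single member.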

How the data were processed

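Bulk poly(A) RNA was sequenced from the 3′ end with barcodes and molecular identifiers, per the labels' protocols. The deposited values are raw counts per gene symbol; the sources used here do not name the aligner, the annotation or whether reads or identifiers were counted. The submitters' processing notes name GRCm38.p6 and DESeq2 1.22.2. The table names each column's group but no replicate, so letters follow table order. Totals were 688498 to 2271228 counts in the 6 libraries used.

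Counts were fitted with edgeR 4.0.16 in R 4.3.3 (quasi-likelihood, TMM, filterByExpr, group only, two-sided, Benjamini-Hochberg over 9852 genes), after a check on simulated data. The biological coefficient of variation was 20.4%. Alternatives were DESeq2 1.42.0, limma-voom (limma 3.58.1), other scalings and filters, and leaving out each library. Standard errors are the log2 fold change divided by the root of the F statistic. Intervals from counts cover counting error only. Genes beside the members were named by lowest adjusted p in their list, up to 4, and by opposite direction, up to 3. Sequences came from RefSeq and GENCODE M21 tables (Biopython 1.88 alignments). Some genes that these rules name are not reported here. The members and lists were chosen with earlier results of these data known.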

Additional observations from a re-analysis of the deposited data

Results flagged for a closer look

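In the group of 4 CD40 day 2 libraries, the gap from the lowest or highest library to its neighbour was set against the group's range, for the levels and shares of the 9 members and for the family total (19 groups of 4). It passed Dixon's 95% limit for 4 values for Ifi204 in library b, both as a level (45.3 CPM, where the other 3 had 72.8 to 74.5 CPM) and as a share of the family counts (4.75%, where the other 3 had 6.97% to 7.43%). Both values come from the same 32 counts. Chance alone flags about 1 in 20 such groups. Library b also held the most counts of conventional dendritic cell markers (0.0203%), and their part in the value was not tested.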

How the results depend on the processing

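Over 12 alternatives the 5 members that rose stayed called and higher, and the number of members called ran from 5 to 7. With each library left out in turn, 3206 to 5514 genes passed among all tested, the fewest without Kupffer day 0 a. Leaving a Kupffer library out leaves 1, which is assumed to vary like the others. The uncalled sign of Mndal turned with DESeq2's size factors (0.0307), upper quartile scaling (0.072) and DESeq2's test (0.0292), and ran from -0.10 to 0.11 with libraries left out; the cause was not tested. With a minimum of 10 counts in 4 libraries fewer genes were tested, and 0 other PYHIN genes and 3 genes of the Ifi204 partner list passed. With libraries left out, 1 to 2 other PYHIN genes passed, 6 to 11 inflammasome genes, 6 to 11 DNA sensing genes, 16 to 21 other interferon-stimulated genes, 7 to 11 receptor signalling genes and 3 to 5 genes of the Ifi204 partner list, the 3 without either Kupffer library. Shares of the family counts kept their direction in all 62 alternatives, with the largest relative shifts for Ifi204 (-4.12 points, and -1.86 with Ifi209 left out of the total, exact permutation p = 0.533) and Aim2 (0.796 points, and 1.76 with Ifi209 left out). No paired analysis was possible because the column names carry no replicate number, and the fit with a replicate block was not run. Depth limits Ifi205 and Aim2 most, each with 16 counts in Kupffer day 0.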

Other observations

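The mouse protein p204, encoded by Ifi204, is known to bind growth and differentiation regulators such as the retinoblastoma protein and the Id proteins. Of 11 tested genes on a list of such partners, 3 were higher and 2 lower in CD40 day 2 than in Kupffer day 0, with a median log2 fold change of 0.10. These 5 of 11 stand beside 53.4% of all genes tested that passed in either direction. Id3 was at 21.4 ± 6.19 CPM in CD40 day 2 and 234 ± 11.4 CPM in Kupffer day 0 (SD, n = 4 and n = 2; edgeR adjusted p = 3.45e-06), and Gata2 at 0.695 ± 0.607 CPM in CD40 day 2 and 33.8 ± 2.52 CPM in Kupffer day 0 (edgeR adjusted p = 1.34e-05). Id2 had 498, 1000.2, 550 and 479 CPM in CD40 day 2, against 313 and 294 CPM in Kupffer day 0, and Runx2 was at 9.69 ± 4.14 CPM in CD40 day 2 and 1.27 ± 0.173 CPM in Kupffer day 0. E2f1 was the third that passed as higher, chosen after its values were seen. Id2 lost its call without either Kupffer library (adjusted p 0.094 and 0.0948), Runx2 without Kupffer day 0 a (0.102), and E2f1 without CD40 day 2 c (0.0717) or Kupffer day 0 b (0.0989). Several marker lists moved with the genes that fell. Endothelial markers took 0.0363% to 0.0677% of counts in CD40 day 2, against 1.57% and 1.76% in Kupffer day 0. Kupffer cell markers took 0.0106% to 0.0220% in CD40 day 2, against 0.355% and 0.400% in Kupffer day 0. Stellate cell and hepatocyte markers also took a smaller share in CD40 day 2, and classical monocyte markers a larger one. The part of these cells in the values of this list was not tested. Rb1 and Trp53, named for their place on the list, had log2 fold changes of -0.45 and 0.21 and did not pass the test.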
